A study of Mus musculus with 6 samples.

Results

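The genes examined encode 10 enzymes that make serine, asparagine and proline or that carry one-carbon units on folate in mitochondria. They were taken as a named list of 10 genes among the 55401 Ensembl genes of the deposited expression table, and all 10 were found there. The list was chosen with earlier results of these data known. RNA-seq of mouse FGSCs (female germline stem cells, as the authors label the line) compared 3 control libraries with 3 libraries from cells given 1 μM metformin for 24 h. Metformin is a biguanide used against type 2 diabetes, and its effect on expression in this line was the question behind the comparison. Both groups came from a C57BL/6 line at passages over 20, grown on STO feeder cells, which are mitotically inactivated mouse embryonic fibroblasts, in a medium that contains added non-essential amino acids. No source states that the 3 libraries of a group came from separate cultures, so p-values measure only the spread between these libraries.

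Serine is made from the glycolytic intermediate 3-phosphoglycerate in consecutive steps by PHGDH, PSAT1 and PSPH. SHMT2 passes a carbon of serine to mitochondrial folate. MTHFD2 oxidizes this carbon, after which MTHFD1L releases it as formate or ALDH1L2 oxidizes it to carbon dioxide. Formate supplies purine and thymidylate synthesis in the cytosol. ASNS makes asparagine from aspartate and glutamine, while ALDH18A1 and PYCR1 make proline from glutamate. Many of these genes are known targets of ATF4, the transcription factor that cells use when amino acids run short or mitochondria are disturbed. The non-essential amino acid supplement of culture media contains serine, glycine, asparagine and proline themselves.

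ATF4 acts together with C/EBP factors at composite elements with the core TGATGNAA, so the RefSeq promoters of the genes (GRCm38.p6, 250 bases before to 50 after the start) were searched for this core on both strands. Promoters were found for 9 of the 10 genes, with 2 entries for Psat1, and Aldh1l2 had no entry. The core was present in 2 of these 10 promoters, those of Asns and Pycr1, and in 3.97% of all 32851 promoters. The core of Asns began 23 bases and that of Pycr1 103 bases before the start. The E-box CACGTG, a site of MYC and related factors, was found in Aldh18a1, 59 bases before its start, and in 7.15% of all promoters. A further core, TGGTGCAA, was chosen after the sequences were seen, because the stress gene Trib3 and 1 of the 2 Psat1 promoters carry it. It is held by 0.536% of all promoters. A match in these windows is a description of the letters only. The sequences are shown so that the sites of the enzymes can be set beside those of stress genes that passed the test, each 5′ to 3′ on the strand of its gene, with the matched letters in capitals. The windows lie at chr6:7693210-7693250 for Asns, chr11:120643826-120643869 for Pycr1, chr19:15925170-15925213 for Psat1 and chr19:40588499-40588540 for Aldh18a1, all on the minus strand of GRCm38.p6. The RefSeq start of the Psat1 promoter shown lies inside the gene as the deposited table bounds it, downstream of its 5′ end there.
Asns: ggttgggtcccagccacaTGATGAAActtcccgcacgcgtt
Pycr1: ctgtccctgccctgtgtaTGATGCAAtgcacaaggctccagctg
Psat1: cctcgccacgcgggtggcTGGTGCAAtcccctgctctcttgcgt
Aldh18a1: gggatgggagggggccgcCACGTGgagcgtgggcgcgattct

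For comparison, 2 stress genes that metformin raised are shown in the same way. Ddit3, another stress gene that passed the test, and Atf4 were included in the search. No match is recorded for either, nor whether each had a promoter entry. The window of Chac1 lies at chr2:119351031-119351074 on the plus strand and holds the core TGATGNAA in antisense orientation, where it reads TTGCATCA. The window of Trib3 lies at chr2:152344068-152344111 on the minus strand, with the core TGGTGCAA beginning 33 bases before its start. Trib3 also holds TGATGNAA within the first 50 bases after the start.
Chac1: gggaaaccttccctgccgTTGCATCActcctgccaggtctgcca
Trib3: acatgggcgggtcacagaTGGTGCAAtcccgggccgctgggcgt

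Expression was deposited as FPKM, the fragments on a gene scaled to the length of the gene and to the mapped fragments of the library, so that levels can be compared between genes. Depth was estimated at 13400000 to 14000000 fragments per library, and total FPKM ranged from 317332 to 320754. No library stood apart, and no pair had identical values for more than 1.48% of tested genes. Of the 6 markers of germ cells none reached a mean of 1 FPKM, and 3 of them, Dazl, Dppa3 and Pou5f1, stood at 0 throughout, so the cells are named here only by their label. Feeder fibroblast RNA was near 0, with the 10 listed fibroblast markers summing to 0.81 to 0.97 FPKM in the control group and 0.80 to 0.83 with metformin. Blood and mast cell markers summed to 656.6 to 694.5 FPKM in the control group and 631.7 to 654.7 with metformin, with 6 of 10 reaching a mean of 1 FPKM. Most of this difference was 1 gene, the mast cell carboxypeptidase Cpa3, with means of 366.1 and 337.9 FPKM, while Kit had 117.6 and 117.9 and Laptm5 70.5 and 74.7, and the adjusted p of the 6 in limma ran from 0.369 to 0.971. The part of this difference in the results below was not tested. Of the blood and mast cell markers under 1 FPKM, Fcer1a stood at 0 throughout. The control and metformin means were 0.0133 and 0.01 FPKM for Hdc, 0.983 and 0.81 for Ms4a2, and 0.1 and 0.1 for Cd33.

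The levels spanned a wide range, and their order was the same in all 6 libraries. Shmt2 was the highest with a control mean of 158.7 ± 4.57 FPKM (SD, n = 3), followed by Phgdh with 148.9 ± 2.81 and Psat1 with 126.3 ± 1.12. Mthfd2 (67.9 ± 2.20), Asns (62.0 ± 0.558) and Aldh18a1 (55.1 ± 0.982) formed a middle tier. Mthfd1l had 23.2 ± 1.03, Psph 10.5 ± 0.694 and Pycr1 2.18 ± 0.186 FPKM. Each gene was above the next one in 6 of 6 libraries, and within a group no neighbours in this order overlapped. The first and last steps of serine synthesis thus differed in transcript level, with Psph far below Phgdh and Psat1 in every library. Aldh1l2 was at the limit of detection, with 1 to 11 fragments per library by the estimated depth, and was left out of the test, which required a mean of 1 FPKM.

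**Figure D1:**
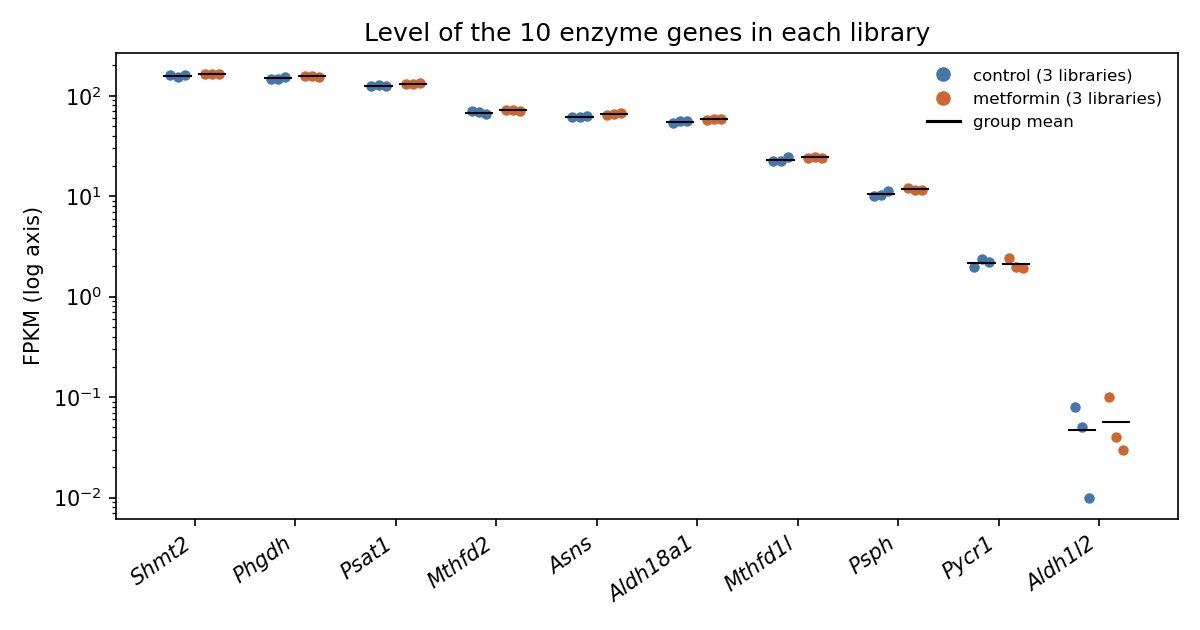
FPKM on a log axis (vertical) of the 10 enzyme genes (horizontal), ordered by control mean; each point is 1 of 3 libraries per group and black lines are group means. Shmt2, Phgdh and Psat1 sit above 125 FPKM in all libraries, Pycr1 near 2 and Aldh1l2 at or under 0.1.

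With metformin, 8 of the 9 tested enzyme genes had higher means and Pycr1 a lower one, all by small amounts. Fold changes were estimated with limma on log2(FPKM + 1), a scale that understates the change of low genes, across the 10661 genes that averaged 1 FPKM or more. None of the 9 passed an adjusted p of 0.05 (Benjamini-Hochberg over all tested genes), with adjusted p from 0.356 to 0.926, and 0.0281% of all tested genes did (Trib3, Chac1 and Ddit3). At an unadjusted p under 0.05, 6 of the 9 were higher with metformin and 0 were lower, against 6.03% of all tested genes that were higher and 4.81% that were lower. Over all tested genes this balance turned with the scaling, with 643 higher and 513 lower as deposited, 568 and 584 after TPM scaling, and 559 and 579 after quantile normalization, while 6 and 4 of the 9 enzyme genes were higher under these scalings. The 6 were Phgdh, Psat1, Psph, Asns, Mthfd2 and Aldh18a1. This count was 3 when control replicate 1, control replicate 2 or metformin replicate 1 was left out, and also 3 without the trend in limma's spread. Over all tested genes, 556, 522 and 510 were higher and 437, 392 and 508 lower with those libraries left out. Without the trend, 551 were higher and 486 lower. The lowest metformin value exceeded the highest control value for 6 of the 9, namely Psat1, Psph, Asns, Shmt2, Mthfd2 and Aldh18a1, against 8.89% of all tested genes, while 0 of the 9 and 8.1% of all tested genes were wholly below. The number wholly above was 5 after TPM scaling, 8 without control replicate 3, 7 without metformin replicate 3 and 6 under the other alternatives. With a library left out, full separation is reached more easily, so the 8 and 7 cannot be set beside the 6 or the 8.89%. The share of all tested genes wholly above under these alternatives was not recorded. The median log2 fold change was 0.07 over the 9 genes and 0.0041 over all tested genes. Because the genes were chosen with earlier results of these data known, these contrasts with all tested genes are description, not independent support. RNA was taken from whole cultures, in which a change in the share of a cell type and a change in RNA per cell cannot be told apart.

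**Figure D2:**
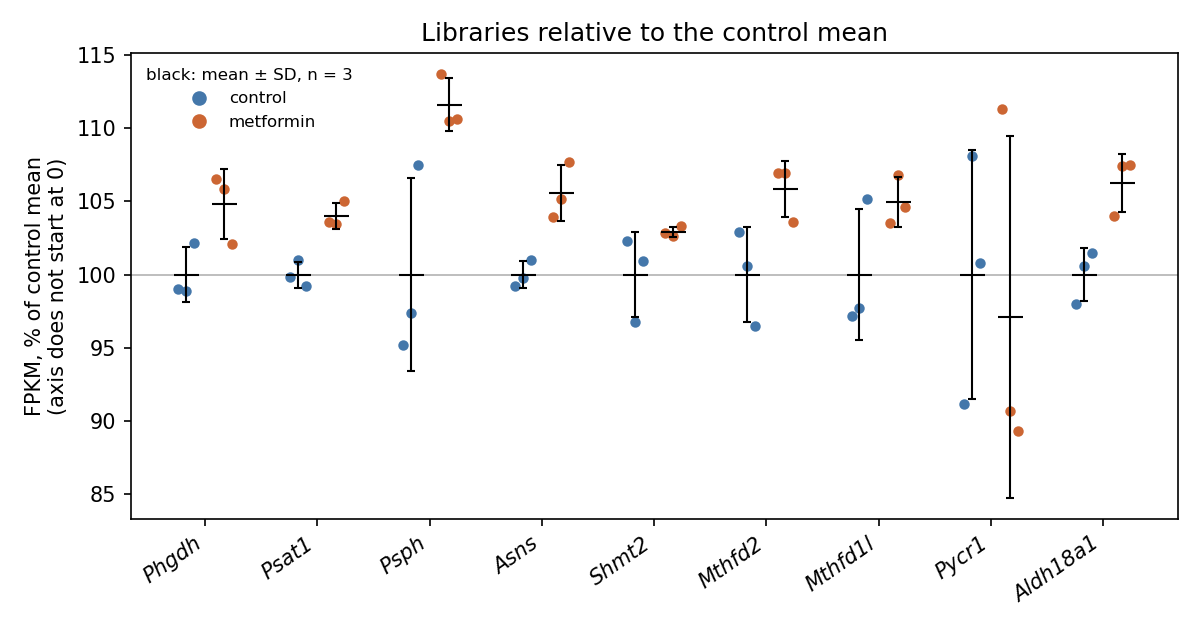
FPKM of 9 enzyme genes as a percentage of each gene's control mean (vertical, axis not starting at 0); points are libraries, black bars the mean ± SD of 3. The metformin points lie above all control points for Psat1, Psph, Asns, Shmt2, Mthfd2 and Aldh18a1, and on both sides of the control mean for Pycr1.

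Among the serine synthesis genes, Phgdh, Psat1 and Psph all had higher means with metformin. Gene positions are given on GRCm38 from the deposited table, and all 10 genes but Mthfd1l lie on the minus strand. Phgdh (ENSMUSG00000053398), the enzyme of the first and committed step, lies on chromosome 3 from 98313170 to 98339990 and had 147.43, 147.22 and 152.18 FPKM in the control libraries and 158.64, 157.63 and 152.04 with metformin. The groups touched only at control replicate 3 and metformin replicate 3, which differed by 0.14 FPKM. Its log2 fold change was 0.07 (± 0.02 SE, limma adjusted p = 0.412). Phgdh is uncertain in another respect, since its transcript aligned at 95% identity or more over at least 200 bases to 9 other stretches of the NCBIM37 genome, the longest being 1833 bases at 96.0% identity on chromosome 8. How the authors counted fragments that match several places is not given in the sources used here.

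Psat1 (ENSMUSG00000024640), the aminotransferase of the next step, lies on chromosome 19 from 15904678 to 15947337. Its libraries were tightly grouped, with 126.1, 127.52 and 125.31 FPKM in the control group and 130.83, 130.64 and 132.65 with metformin. The groups were separated by 3.12 FPKM, and the log2 fold change was 0.06 (± 0.02 SE, limma adjusted p = 0.384). Psph (ENSMUSG00000029446), the phosphatase that releases serine, lies on chromosome 5 from 129765558 to 129787449 and had 10.03, 10.26 and 11.33 FPKM in the control group and 11.98, 11.64 and 11.66 with metformin. Its log2 fold change of 0.15 (± 0.05 SE, limma adjusted p = 0.379) was the highest of the 9 genes, and control replicate 3 came within 0.31 FPKM of the metformin libraries. The 5′ end of Psph overlaps that of Cct6a, a chaperonin gene on the opposite strand, over 452 bases from 129786998 to 129787449. Cct6a had 233.1 ± 1.31 FPKM in the control group and 234.8 ± 1.63 with metformin (SD, n = 3 each), with a log2 fold change of 0.01, and fragments of the overlap could be shared if the counting ignored the strand.

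Asns (ENSMUSG00000029752), which encodes asparagine synthetase, lies on chromosome 6 from 7675169 to 7693254. The control libraries had 61.53, 61.87 and 62.62 FPKM and the metformin libraries 64.42, 65.18 and 66.75. All metformin libraries were higher, by at least 1.8 FPKM, and the log2 fold change was 0.08 (± 0.02 SE, limma adjusted p = 0.363). Its 95% interval, 0.02 to 0.13, lies far below the log2 fold change of the stress genes that passed the test. The 95% interval of Pycr1, the other enzyme gene whose promoter holds the core TGATGNAA, also lay wholly below that of Chac1. Whether the core bears on these fold changes was not tested, and the scale understates the change of Pycr1, a low gene.

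Of the mitochondrial folate enzymes, Mthfd2, Shmt2 and Mthfd1l had higher means with metformin and Aldh1l2 could not be assessed. Mthfd2 (ENSMUSG00000005667), the dehydrogenase and cyclohydrolase of the pathway, lies on chromosome 6 from 83305691 to 83325908 and had 69.89, 68.32 and 65.55 FPKM in the control group and 72.64, 72.63 and 70.37 with metformin. The groups were separated by 0.48 FPKM and metformin was the higher, and the log2 fold change was 0.08 (± 0.03 SE, limma adjusted p = 0.412). A gene of 2799 bases with no symbol lies within Mthfd2 on the same strand. It had 0.78 FPKM in the control group and 1.14 with metformin, and fragments there cannot be assigned to one of them for certain. Shmt2 (ENSMUSG00000025403), the serine hydroxymethyltransferase of mitochondria, lies on chromosome 10 from 127517123 to 127522444. It had 162.37, 153.59 and 160.17 FPKM in the control group and 163.2, 162.83 and 163.92 with metformin. The metformin libraries lay close together just above the highest control library, whereas control replicate 2 was the lowest by several FPKM. The log2 fold change of Shmt2 was 0.04 (± 0.02 SE, limma adjusted p = 0.576), and its 95% interval from -0.02 to 0.10 includes no difference. Without control replicate 2 the log2 fold change was 0.02.

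Mthfd1l (ENSMUSG00000040675), the formate-tetrahydrofolate ligase of mitochondria, lies on chromosome 10 from 3973118 to 4167081. It had 22.51, 22.63 and 24.35 FPKM in the control group and 23.97, 24.74 and 24.23 with metformin, and control replicate 3 was above 2 of the metformin libraries. Its log2 fold change was 0.07 (± 0.04 SE, limma adjusted p = 0.544), and 0.10 without control replicate 3. Aldh1l2 (ENSMUSG00000020256), the mitochondrial formyltetrahydrofolate dehydrogenase, lies on chromosome 10 from 83487450 to 83534140. It was listed at 0.08, 0.05 and 0.01 FPKM in the control group and at 0.1, 0.04 and 0.03 with metformin, values at which a difference was not detectable at this depth, and its 3′ end overlaps D10Wsu102e on the opposite strand over 1056 bases. Its cytosolic paralogue Aldh1l1 was listed at 0.02 FPKM in control replicate 1 and at 0 in the other libraries.

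The means of the proline enzymes differed in direction. Aldh18a1 (ENSMUSG00000025007), the bifunctional synthase that starts proline synthesis from glutamate, lies on chromosome 19 from 40550257 to 40588463 and had 54.01, 55.42 and 55.9 FPKM in the control group and 57.3, 59.17 and 59.21 with metformin. The groups were separated by 1.4 FPKM, with metformin the higher. Its log2 fold change was 0.09 (± 0.03 SE, limma adjusted p = 0.356), the lowest adjusted p of the 9 genes. A gene without a symbol on the same strand lies within it over 522 bases, with 6.57 FPKM in the control group and 8.51 with metformin, and fragments there cannot be assigned to one of them for certain. Pycr1 (ENSMUSG00000025140), a mitochondrial reductase of the last step, lies on chromosome 11 from 120635712 to 120643769. It had 1.99, 2.36 and 2.2 FPKM in the control group and 2.43, 1.98 and 1.95 with metformin. The libraries of both groups were mixed, and the log2 fold change was -0.03 (± 0.09 SE, limma adjusted p = 0.926) with a 95% interval from -0.23 to 0.17. At 105 to 134 fragments per library, the counting error alone of Pycr1 is 9.24% of its level.

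**Figure D3:**
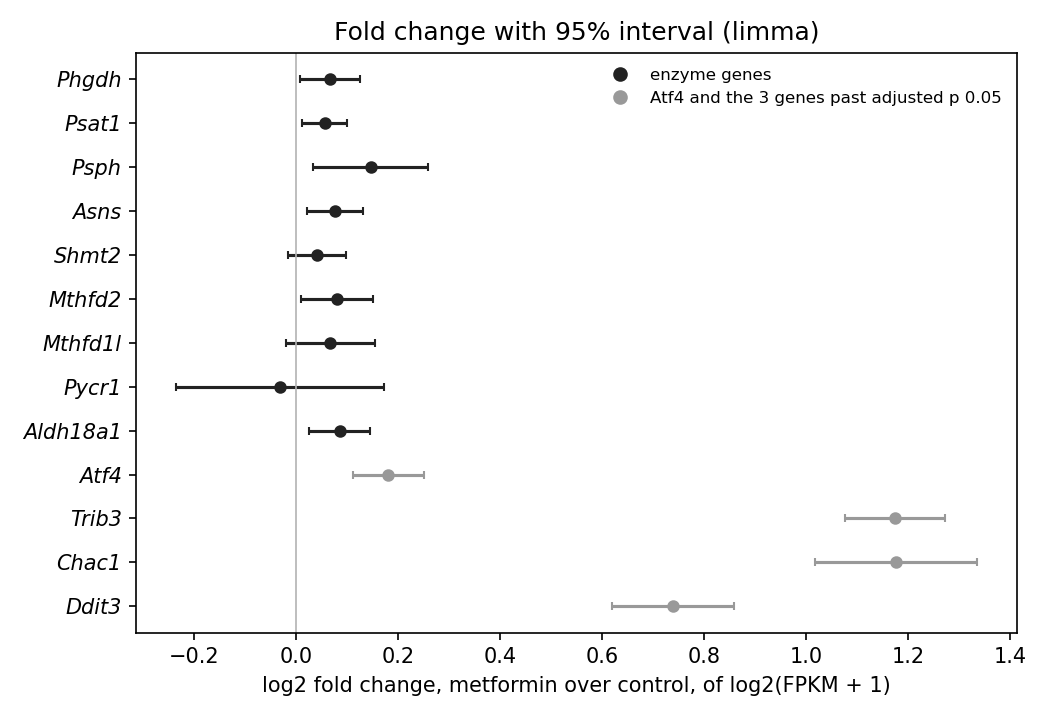
Log2 fold change of log2(FPKM + 1), metformin over control (horizontal), with 95% intervals from limma, for 9 enzyme genes (black) and for Atf4, Trib3, Chac1 and Ddit3 (grey). The enzyme genes lie between -0.03 and 0.15, whereas Trib3 and Chac1 lie at 1.17 and 1.18 and Ddit3 at 0.74.

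Set beside these values, Atf4 itself had 203.5 ± 3.59 FPKM in the control group and 230.9 ± 8.30 with metformin (SD, n = 3 each), and its log2 fold change was 0.18 (± 0.03 SE, limma adjusted p = 0.243). Trib3, which encodes a pseudokinase, had a log2 fold change of 1.17 with a 95% interval from 1.08 to 1.27. For Chac1, an enzyme that degrades glutathione, the interval was 1.02 to 1.33, and for Ddit3, which encodes the factor CHOP, it was 0.62 to 0.86. No upper bound among the 9 enzyme genes exceeded 0.26, which was that of Psph. The log2 fold changes of the enzyme genes fell between the 69.5th and the 94.5th percentile of all tested genes, except Pycr1 at the 30.7th. Over all tested genes the 5th and 95th percentiles were -0.13 and 0.16.

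The spread between libraries is set here beside the error that counting fragments alone gives. By the estimated depth and GENCODE gene lengths, 7188 to 7792 fragments fell on Psat1 in each library, a counting error of 1.15%, and its coefficient of variation was 0.887% in the control group and 0.845% with metformin. Psph rested on 244 to 305 fragments, a counting error of 5.97%, and varied by 6.58% and 1.62%. Shmt2, with a counting error of 1.4%, varied by 2.88% in the control group and by 0.339% with metformin. The control group also varied more than counting gives for Mthfd1l, by 4.44% against 2.62%, and for Mthfd2, by 3.24% against 1.95%. With 3 libraries a group, these coefficients are themselves uncertain. The difference of 11.6% in mean Psph therefore rests on few fragments, whereas the 4.01% of Psat1 and the 5.55% of Asns rest on far more. The gap between groups was below the counting error of 1 library for Shmt2 (0.46 FPKM), Mthfd2 (0.48) and Psph (0.31). It was above that error for Psat1 (3.12 FPKM), Asns (1.8) and Aldh18a1 (1.4). These errors cover counting only.

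The mitochondrial folate enzymes were then compared with their paralogues in the same library. The cytosolic genes Shmt1 and Mthfd1 had lower means with metformin. Shmt1, the cytosolic hydroxymethyltransferase, had 43.1 ± 0.817 and 41.8 ± 1.42 FPKM (SD, n = 3 each), and Mthfd1, the cytosolic trifunctional enzyme, had 76.3 ± 0.958 and 73.6 ± 0.535, with adjusted p = 0.659 and 0.445 in limma. The log2 difference between Shmt2 and Shmt1 was 1.84 to 1.89 in the control libraries and 1.90 to 2.00 with metformin. The log2 difference between Mthfd1l and Mthfd1 was -1.71 to -1.63 in the control libraries and -1.58 to -1.52 with metformin. For both pairs the groups did not overlap, and the shift was 0.08 ± 0.03 (standard error) for Shmt2 and 0.12 ± 0.03 for Mthfd1l. In both cases the two-sided exact permutation test gave p = 0.1, the smallest possible with 3 libraries against 3, and 0.25 adjusted over the 5 pairs compared. In share of summed FPKM, Shmt2 made up 78.6% ± 0.314 of the pair in the control group and 79.6% ± 0.561 with metformin, and Mthfd1l went from 23.3% ± 0.586 to 24.8% ± 0.424 (SD, n = 3 each).

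Mthfd2 was compared with Mthfd2l, a paralogue that is also mitochondrial. Mthfd2 made up 96.2% ± 0.261 of the pair in the control group and 96.3% ± 0.350 with metformin, and the log2 difference shifted by 0.07 ± 0.07 (standard error), with overlapping groups (exact permutation test, p = 0.4). This shift was 0.02 without control replicate 3, 0.03 without metformin replicate 3 and 0.13 without metformin replicate 2. For the last step of proline synthesis, Pycr1 was compared with its cytosolic paralogue Pycr3, which had 48.8 ± 0.327 FPKM in the control group and 51.5 ± 0.257 with metformin (SD, n = 3 each). Pycr1 made up 4.29% ± 0.372 of the summed FPKM of this pair in the control group and 3.95% ± 0.50 with metformin. The log2 difference shifted by -0.11 ± 0.09 (standard error), and the groups overlapped (exact permutation test, p = 0.3). It was -0.07 without control replicate 2 or metformin replicate 3 and -0.18 without metformin replicate 1. Pycr1 was below Pycr3 in every library.

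**Figure D4:**
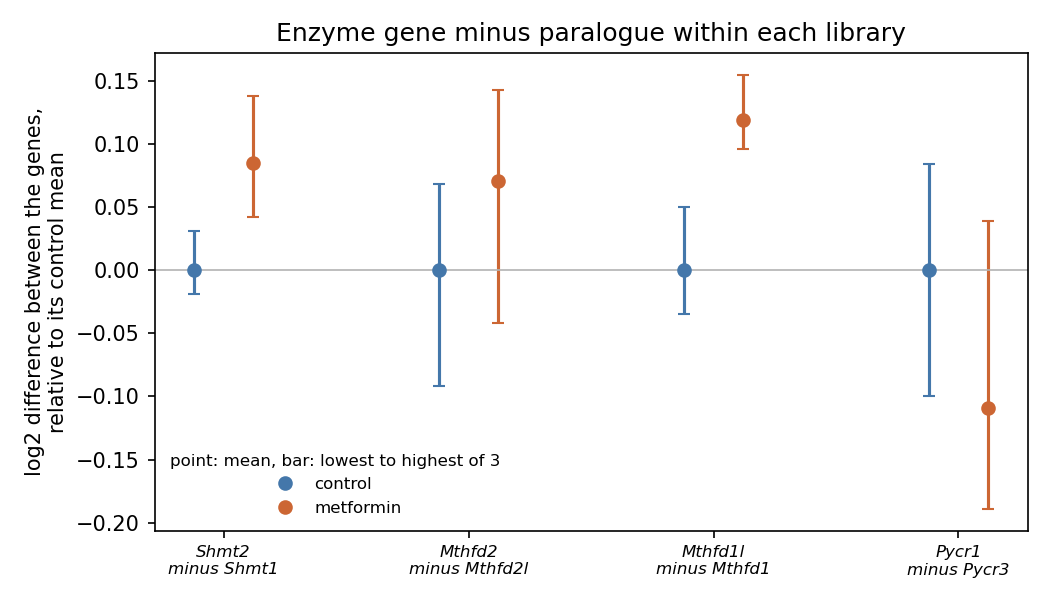
Log2 difference between an enzyme gene and its paralogue in the same library, relative to the control mean of that difference (vertical), for 4 pairs; points are means and bars run from the lowest to the highest of 3 libraries. Control and metformin bars are apart for Shmt2 against Shmt1 and Mthfd1l against Mthfd1 and overlap for the others.

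Neighbouring pathways were read from lists of 82 genes in all, of which 60 were tested. No gene of these lists passed an adjusted p of 0.05 in limma, while 8 were higher and 5 lower at an unadjusted p under 0.05, and the median log2 fold change was -7e-04. Of all tested genes, 6.03% were higher and 4.81% lower at that threshold. These shares belong beside the counts of each list below. In the cytosolic folate cycle, 1 of 6 tested genes was higher at that threshold and 2 were lower. Mthfd1, described above, was among the lower ones, with a log2 fold change of -0.05. Among 6 mitochondrial folate carriers and partners, the median was -0.02 and Sfxn3, of the family of mitochondrial serine carriers, had the lowest p with -0.09. Mtfmt, which formylates the mitochondrial initiator tRNA, had -0.05 and the serine carrier Sfxn1 had -0.04.

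The 13 purine synthesis genes, which use the one-carbon units, had a median log2 fold change of -0.0088. Only Adssl1, a muscle-type adenylosuccinate synthase, was past the unadjusted threshold, with 0.16, whereas Adsl had 0.05 and Prps2 -0.05. Of 4 tested genes of glycine cleavage and use, Dld, a lipoamide dehydrogenase shared by several mitochondrial complexes, was lower at that threshold with 66.3 ± 1.29 and 62.3 ± 0.402 FPKM (SD, n = 3 each) and a log2 fold change of -0.09 (limma adjusted p = 0.346). Gcat had -0.06 and Gcsh 9e-04. In the methionine cycle, 1 of 5 tested genes was higher and 0 were lower at that threshold. It was Mat2a, which makes S-adenosylmethionine and had 184.9 ± 1.33 FPKM in the control group and 197.1 ± 2.46 with metformin, a log2 fold change of 0.09 (limma adjusted p = 0.301). Mtr and Mtrr, which regenerate methionine from homocysteine with folate, had -0.08 and -0.07. None of the 6 tested genes of serine use passed the unadjusted threshold in limma, among them Ptdss2 with 0.10, Sptlc2 with 0.04 and Srr with -0.11.

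Around asparagine and glutamine, 2 of 13 tested genes were higher and 1 lower at an unadjusted p under 0.05. Gpt2, the mitochondrial alanine aminotransferase, averaged 5.39 ± 0.215 FPKM without and 6.52 ± 0.263 FPKM with metformin (SD, n = 3 each), and its log2 fold change was 0.24 (limma adjusted p = 0.301). Cad, which starts pyrimidine synthesis, had a log2 fold change of 0.06. In the proline list, 3 of 7 tested genes were higher and 0 lower at that threshold. Pycr3 had a log2 fold change of 0.08, the disulfide isomerase and prolyl hydroxylase subunit P4hb 0.06, and the dipeptidase Pepd 0.12. The median of each list was below the 0.0678 of the 9 enzyme genes. That of the proline list, 0.0571, was near it, followed by 0.0367 for aspartate, asparagine and glutamine. The rest ran from -0.0303 to 0.0195. No test of these differences was made.

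**Figure D5:**
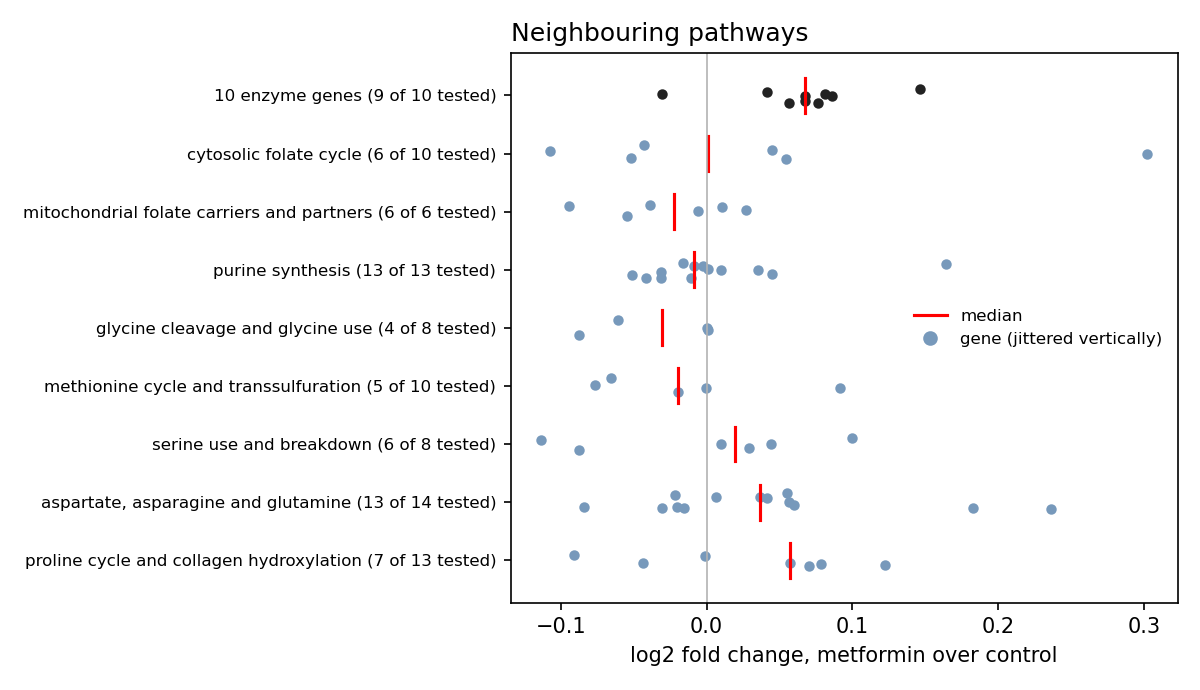
Log2 fold change, metformin over control (horizontal), of the tested genes of the 10 enzymes (black) and of 8 lists of neighbouring pathways (blue); red lines are medians. The median of the enzymes is 0.07, and those of the lists run from -0.03 to 0.06.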

How the data were processed

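RNA-seq of 3 control and 3 metformin libraries was used. The authors deposited FPKM values, 1 column per library, rounded to 2 decimals; their processing notes name HISAT2, DESeq2 and mm9, without roles. Gene positions in the table are those of GRCm38, since 94.2% of 17667 protein-coding genes had their midpoint inside the RefSeq gene of GRCm38.p6 and 8.48% inside the GENCODE gene of NCBIM37 (mm9). The labels name a stranded library kit and the paper another kit, and strand use in counting is not given in the sources used here. The authors' values include their mapping, counting and normalization for length and depth.

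Symbols were found for 32589 genes by Ensembl identifier. Values were tested as log2(FPKM + 1) with limma 3.58.1 in R 4.3.3 (lmFit, eBayes with a trend, two-sided, Benjamini-Hochberg adjustment over the 10661 genes that averaged 1 FPKM or more), without a replicate block. The fit was run on simulated data as a check of the code. No conclusion about changes as small as those of the enzyme genes is drawn from it. Differences between paralogues were compared with exact permutation tests, adjusted over the 5 pairs tested. Depth was estimated from the step of 1 fragment in single-exon genes under 400 bases. Transcripts were aligned to NCBIM37 with blastn 2.17.0. Figures were drawn with matplotlib 3.10.9.

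The 10 genes, pathway lists and marker lists were chosen with earlier results of these data known. Named genes were the 10 enzymes, their paralogues, Atf4, genes past the adjusted threshold and, in each pathway list, up to 3 genes with the smallest p; a few genes that this rule names, and 1 of the pairs, are not reported here. Alternatives were a pseudocount of 0.1, no filter, a mean of at least 10 FPKM, TPM scaling, quantile normalization, median centring, other spreads, the replicate block and each library left out.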

Additional observations from a re-analysis of the deposited data

How the results depend on the processing

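Across 15 alternatives, 8 of the 9 tested enzyme genes kept a higher mean with metformin in each one that tested them, and none of the 9 reached an adjusted p under 0.05 in limma. The log2 fold change of Asns ran from 0.06 to 0.09, that of Psph from 0.11 to 0.20 and that of Shmt2 from 0.02 to 0.06. Pycr1 changed sign with single libraries left out, with log2 fold changes from -0.10 to 0.00897, and was above 0 (0.00897, 0.000569 and 0.00787) without control replicate 2, metformin replicate 2 or metformin replicate 3. The 6 enzyme genes higher at an unadjusted p under 0.05 became 3 without the trend and 3 to 5 with single libraries left out. Over all tested genes, 551 were higher and 486 lower at that threshold without the trend. Leaving out single libraries gave 510 to 624 higher and 392 to 508 lower. With single libraries left out, the shift of Shmt2 against Shmt1 ran from 0.06 to 0.11, that of Mthfd1l against Mthfd1 from 0.10 to 0.14, that of Mthfd2 against Mthfd2l from 0.02 to 0.13 and that of Pycr1 against Pycr3 from -0.18 to -0.07. Over all genes, 7 were called without a filter on low values, against 3, with 22809 genes tested. With the replicate block, 2 genes were called, 5 enzyme genes were higher at an unadjusted p under 0.05 and the median of the enzymes was 0.0678. Of the 10661 genes tested in that fit, 578 were higher and 451 lower at the same threshold. The labels do not say what a replicate number shares, and deviations of same-numbered libraries correlated across genes at -0.03, 0.02 and 0.05, and not every library correlated best with its own number. Aldh1l2 was tested only without the filter. Depth limits Aldh1l2, Pycr1 and Psph.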
